A study of Mus musculus with 35 samples.

Results

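Skin that had received radiation was compared with control skin at week 2 after a single dose of 25 Gy to the left flank of mice. The comparison takes 8 of the 35 bulk RNA-seq libraries in the series, chosen by their labels: 4 labelled radiated and 4 labelled control at that time. All animals were female C57BL/6J, an inbred laboratory strain, and were 10 weeks old when the groups were formed. The 4 radiated libraries carry the numbers 1 to 4, as do the 4 control libraries, and 3 libraries of sham skin from mice that were never radiated serve as a reference level. The series counts 19 mice for 35 samples, so 16 mice remain for the 32 radiated and control samples of weeks 1 to 4, and a radiated and a control library of 1 week with the same number were taken as a pair from 1 mouse. The labels place the biopsies in the radiated field and do not say from where on the body the control skin came. They mention shaving only for treated skin. A difference between the members of a pair can therefore reflect radiation, site or shaving, and these cannot be told apart by the design.

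Ionising radiation breaks DNA, and the protein p53 answers such breaks by switching on genes that stop the cell cycle or start cell death, among them Cdkn1a, which encodes the inhibitor p21, and Mdm2, which encodes the brake on p53 itself. In skin the dividing cells of the epidermis and hair follicle are the most exposed, and visible radiation dermatitis follows only after a delay. Blood monocytes that carry the chemokine receptor CCR2 enter injured skin, become macrophages, and take up debris with the help of complement and Fc receptors. Fibroblasts of the dermis make the collagens and glycoproteins that later form a scar.

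The 8 libraries held between 19026039 and 28487885 estimated counts each. The level of a gene is given as CPM, the gene's counts relative to those of the library, on 1 scale set by TMM (trimmed mean of M values) over all 35 libraries. Krt5, a keratin of the basal epidermis, was high in all 8, at 4172, 6346, 6774 and 4522 CPM in radiated and 3689.7, 6742, 5262 and 3948 CPM in control libraries 1 to 4. Control library 1 stood apart in genes of growing hair and dividing cells: Krt71 (ENSMUSG00000051879, chromosome 15, 101733949 to 101743109, GRCm38) of the inner root sheath was at 741.5 CPM there and at most 22.3 CPM in the other control libraries, and Mki67, a mark of cycling cells, was at 402 CPM against 35.1 to 64.7 CPM. Control library 4 stood apart in genes of mammary or salivary epithelium, with Krt19 at 100.2 CPM against 0.568 to 31.5 CPM, and of 7 such markers 1, the milk protein gene Csn3, fell. The medians of these markers by pair were -0.60, 0.24, 1.22 and -2.57, and none was called when any 1 pair was left out. Control libraries 1 and 4 were both kept. The total of called genes is also given below with each pair left out, and for many lists the count with at least 1 pair left out. Since these are pieces of whole skin, fewer cells of a type and less RNA per cell cannot be told apart.

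With the pairs in the model, edgeR's quasi-likelihood test at a Benjamini-Hochberg adjusted p under 0.05 called 784 of 17345 genes (4.52%). Of these, 602 (3.47%) rose and 182 (1.05%) fell in radiated skin. The change was at least 2-fold for 427 of the genes that rose and for 68 of those that fell, and its median size was 1.15 on the log2 scale. Over all tested genes the median log2 fold change was -0.0083. The direction was the same in 4 of 4 pairs for 778 of the 784 genes. A paired test on these same pairs had selected them, so this agreement follows in part from the selection. The levels of the 4 radiated and the 4 control libraries did not overlap for 387 of the called genes (49.4%), against 1201 of all tested genes (6.92%).

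In edgeR the call depends on the pairing. Without it, 1 gene of the 17345 (0.00577%) passed, Hoxb9. In that fit 756 of the 784 genes (96.4%) had an unadjusted p under 0.05, against 2458 of all 17345 tested genes. The 784 genes were chosen on these same libraries, so their share is no separate support. DESeq2's Wald test without the pairing called 734 genes, 536 higher and 198 lower. The spread between mice can be as large as the difference within a mouse, with Ccr2 and Cd68 as examples: control library 1 lay above radiated libraries 2 and 3 for both. Leaving out pair 1, 2 or 4 gave 941, 314 or 437 called genes. Leaving out pair 3 gave 57, all of them higher in radiated skin. Among the 784 genes, 780 kept their direction without pair 3, and of the 182 that fell none was called without it and 7 without pair 2. In sham skin, 531 of the 602 genes that rose had a mean level nearer to control than to radiated skin, but 139 of the 182 genes that fell had a mean level nearer to radiated skin.

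**Figure D1:**
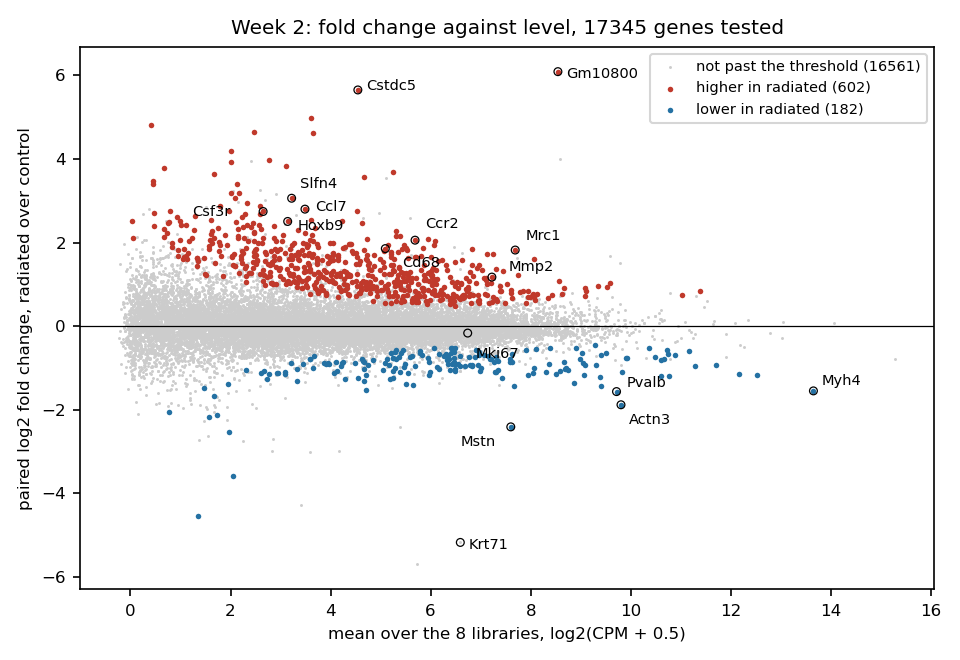
Each point is 1 of the 17345 tested genes: the horizontal axis gives its mean over the 8 libraries as log2(CPM + 0.5) and the vertical axis the paired log2 fold change of radiated over control skin. Red marks the 602 genes that rose and blue the 182 that fell (adjusted p under 0.05). Ccr2, Cd68 and Mrc1 sit among the red points, the muscle genes Myh4, Pvalb, Actn3 and Mstn among the blue, and Krt71 has a log2 fold change of -5.17 without passing the test.

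Genes of monocytes and macrophages rose together. Of 19 macrophage markers tested, 14 rose and none fell, and their median log2 fold change was 1.66. Of 6 monocyte markers, 3 rose, with a median of 1.02, and 1 rose without pair 2 or without pair 3. The monocyte list shares 2 genes, Fn1 and Vcan, with the list of matrix glycoproteins described below. Fn1, the gene of fibronectin, was 1 of the 3 that rose. Ccr2 (ENSMUSG00000049103, chromosome 9, 124101950 to 124113557, GRCm38), the receptor that guides monocytes out of the blood, had the smallest p of all genes. Its level was 184, 30.4, 41.5 and 72.6 CPM in radiated libraries 1 to 4 and 46.7, 8.52, 8.77 and 15.9 CPM in control libraries 1 to 4. The 2 groups overlapped, because control library 1 was above radiated libraries 2 and 3, yet every radiated library exceeded its own control. In edgeR's paired fit it rose by 2.06 on the log2 scale, with an SE of 0.13 and an adjusted p of 0.00299.

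Cd68, which encodes a lysosomal protein of phagocytes, stood at 127, 24.3, 25.1 and 38.1 CPM in radiated skin and at 28.9, 6.84, 8.43 and 10.5 CPM in control skin (chromosome 11, 69664213 to 69666153, GRCm38). Pair 1 was the highest on both sides, and the fitted log2 change was 1.86 (SE 0.15, adjusted p 0.00299). For Mrc1, the mannose receptor of tissue macrophages, the radiated libraries held 573, 153, 209 and 371 CPM and the control libraries 138, 57.5, 72 and 75.5 CPM. These groups did not overlap (log2 fold change 1.82, SE 0.17, adjusted p 0.00404). Adgre1, the gene of the F4/80 antigen, and Csf1r, the receptor for the growth factor that keeps macrophages alive, rose less, by 1.57 and 1.22 on the log2 scale. Fcgr1, a high-affinity receptor for antibodies, rose most in the list, by 2.43, from 3.13, 0.86, 0.96 and 1.51 CPM to 17.5, 4.15, 2.93 and 12.5 CPM in pairs 1 to 4. The 5 markers that did not pass were Cd14, Folr2, Cbr2, Gas6 and Mertk, with log2 fold changes from 0.46 to 1.75.

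The rise of these genes was seen in each mouse. The median over the macrophage list was 2.08, 1.21, 1.43 and 1.24 on the log2 scale in pairs 1 to 4. Without pair 3, the pair whose absence cost most calls, 7 of the 19 markers rose and the list's median was 1.62. The mean log2 CPM of the list ran from 5.09 to 7.00 in radiated skin, from 3.88 to 5.06 in control skin and from 4.09 to 4.92 in sham skin. Radiated skin thus lay above sham skin in each library, and control and sham skin covered much the same range.

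**Figure D2:**
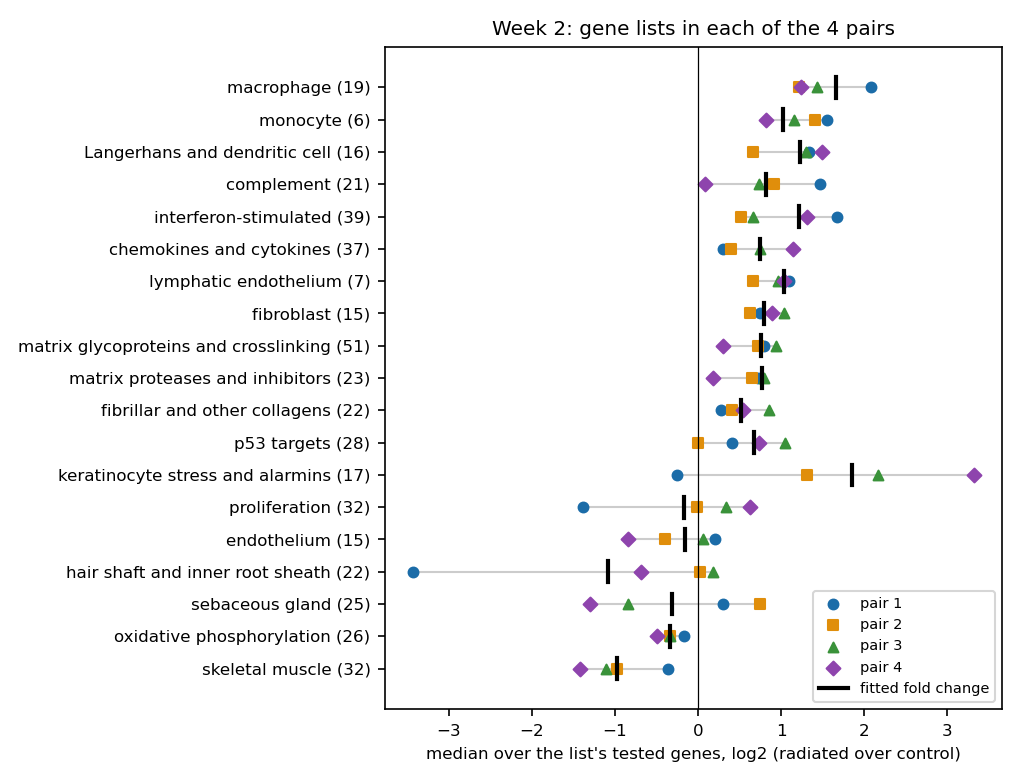
Each row is a gene list with the number of its tested genes in brackets. Coloured symbols give the median log2 ratio of radiated to control skin in each of the 4 pairs and the black tick gives the median fitted log2 fold change. The macrophage, lymphatic and fibroblast lists lie above 0 in all 4 pairs, the muscle list lies below 0 in all 4, and the hair shaft list is at -3.43 in pair 1 and near 0 in pairs 2 and 3.

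Genes of the leukocyte immunoglobulin-like receptor family were among those with the smallest p. Lilr4b (ENSMUSG00000112023, chromosome 10, 51480632 to 51486703, GRCm38) and Lilrb4a (ENSMUSG00000112148, chromosome 10, 51490956 to 51496611, GRCm38) are neighbours on chromosome 10, and Lilrb4a encodes an inhibitory receptor of myeloid cells. Lilr4b was at 25.8, 11.2, 38.5 and 50.3 CPM in radiated libraries and at 4.89, 2.45, 6.9 and 6.57 CPM in control libraries, which is 2.52 on the log2 scale (SE 0.18, adjusted p 0.00299). Lilrb4a rose by 2.48 (SE 0.19), and neither gene overlapped between the groups. The genes are similar in sequence, so the split of reads between them is less certain than their joint rise.

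Complement, the set of proteins that tags cells and debris for uptake, had 8 of 21 tested genes higher and none lower, with a median of 0.82. All 3 chains of C1q, the protein that starts the classical pathway and which macrophages make, rose. C1qb was at 408, 89.7, 101 and 123 CPM in radiated skin and at 85, 29.2, 31 and 34.7 CPM in control skin (log2 fold change 1.85, SE 0.14, adjusted p 0.00299). The groups did not overlap, although control library 1 came close to radiated library 2. Properdin, encoded by Cfp (ENSMUSG00000001128, chromosome X, 20925454 to 20931555, GRCm38) and a positive regulator of the alternative pathway, rose by 1.94 (SE 0.15), and factor B, Cfb, by 1.46. The receptors C3ar1 and C5ar1, through which myeloid cells sense complement fragments, rose by 1.96 and 1.71. C3 itself did not pass: it was at 861, 629, 412 and 261 CPM in radiated and 444, 273, 375 and 408 CPM in control skin, and pair 4 went the other way (log2 fold change 0.42, adjusted p 0.462). The complement and macrophage lists share 3 genes, those of C1q. Without pair 3, 5 complement genes were called.

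Signals that attract monocytes rose beside the cells' own markers. Of 37 chemokine and cytokine genes tested, 11 rose and none fell (median 0.74). They included Ccl2, Ccl7 and Ccl8, ligands that attract monocytes, and Csf1, the macrophage growth factor. Ccl7 (ENSMUSG00000035373, chromosome 11, 82045712 to 82047525, GRCm38) was at 3.18, 9.06, 30.9 and 31.3 CPM in radiated libraries 1 to 4 and at 0.712, 0.43, 4.89 and 5.37 CPM in the controls. Pairs 1 and 2 were low and pairs 3 and 4 high on both sides, and the fitted log2 change was 2.80 (SE 0.29, adjusted p 0.00523). Csf1 stood at 108, 129.8, 214 and 116 CPM in radiated skin and 41.9, 39.5, 96.7 and 89.5 CPM in control skin, and rose by 1.15 (SE 0.20, adjusted p 0.0247). Osm, a cytokine of myeloid cells that acts on keratinocytes and fibroblasts, rose by 3.46. Cxcl1 and Il6 had log2 fold changes of 1.35 and 1.85 without passing (adjusted p 0.141 and 0.111), and Cxcl5, a neutrophil attractant, was at 0.16 (adjusted p 0.833). Without pair 2, 4 genes of the list were called, and without pair 3, 2 were.

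Some genes of antigen presentation rose as well. Of 16 markers of Langerhans and dendritic cells, 7 rose and none fell (median 1.23). They were the class II genes H2-Aa, H2-Ab1, H2-Eb1 and H2-DMb1, their chaperone Cd74, and Itgax and Cd209a of dendritic cells. H2-Ab1 had 195, 84.3, 248 and 218 CPM in radiated skin and 62.4, 53.8, 80.6 and 58.1 CPM in control skin, with no overlap between the groups (log2 fold change 1.46, SE 0.21, adjusted p 0.0133). Pair 2 showed the smallest difference. Cd207, which encodes langerin and marks the Langerhans cells of the epidermis, was at 5.09, 6.31, 7.67 and 8.55 CPM in radiated skin and 4.79, 5.42, 8.43 and 17.1 CPM in control skin and was higher in 2 of the 4 pairs (log2 fold change -0.24, adjusted p 0.629). Class II genes, Cd74 and Itgax are also expressed by macrophages. None of the list was called without pair 3, and 8 were called without pair 2.

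Markers of other leukocytes were also tested. Among 8 neutrophil markers, Csf3r and S100a9 rose, from 1.66, 0.645, 2.27 and 1.09 CPM to 8.36, 3.04, 21.1 and 8.12 CPM for Csf3r, the receptor of the neutrophil growth factor (2.74, SE 0.26, adjusted p 0.00427). S100a8, which pairs with S100a9 in a neutrophil and keratinocyte alarmin, had too few counts to be tested, at 0.0442, 0, 2.21 and 6.32 CPM in radiated and 0.19, 0.172, 0.131 and 0.417 CPM in control skin. Ly6g, Camp, Ltf, Elane and Mmp8 of neutrophils also fell under the count filter. Among 19 T cell markers only Cd4, which macrophages can also carry, passed, and Cd3e was at -0.084 (adjusted p 0.888). Of 10 mast cell markers Mcpt4 and Hdc rose, by 1.60 and 1.19, and the list's median was 0.96. None of the 3 B and plasma cell markers tested passed. Of 6 eosinophil and innate lymphoid markers, Il1rl1, the receptor of interleukin 33, rose by 1.57 (adjusted p 0.0237), and Gata3, also a gene of the hair follicle, fell. Without pair 3 no neutrophil, T cell or eosinophil marker was called, and without pair 2 no mast cell or T cell marker was.

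Interferon-stimulated genes, the antiviral genes that cells switch on through STAT and IRF factors, formed the list with the most calls. Of 39 tested, 20 rose, none fell and all 39 had a positive log2 fold change, with a median of 1.22. The oligoadenylate synthetase genes, whose products sense double-stranded RNA, stood at the top, with Oasl1 at 2.88 and Oas3 at 2.75. Oasl1 (ENSMUSG00000041827, chromosome 5, 114923240 to 114937915, GRCm38) was at 22.7, 3.21, 3.34 and 9.64 CPM in radiated and 2.8, 0.688, 0.349 and 1.25 CPM in control skin (SE 0.26, adjusted p 0.00364). Radiated libraries 1 and 4 were high and libraries 2 and 3 low. Ifit1, whose protein binds foreign RNA ends, was also highest in radiated libraries 1 and 4, with 52.1, 21.7, 14.1 and 44.7 CPM against 12.4, 6.19, 5.76 and 11.4 CPM (log2 fold change 1.80, SE 0.18, adjusted p 0.00427). Irf7, the factor that amplifies the response, rose by 1.61 (adjusted p 0.0112). The list's median by pair was 1.67, 0.52, 0.66 and 1.31, and leaving out pair 1, 2, 3 or 4 gave 13, 11, 5 or 12 calls in the list.

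Sham skin does not give 1 reference level for these genes. Ifit1 was at 28.2, 8.54 and 14.1 CPM and Oas3 at 35.5, 3.21 and 30.2 CPM in the 3 sham libraries, so sham libraries 1 and 3 reached the level of some radiated libraries. Of the 20 interferon genes that rose, 10 had a sham mean nearer to control skin and 10 nearer to radiated skin. The mean log2 CPM of the list ran from 3.21 to 5.00 in radiated, from 2.36 to 3.20 in control and from 2.61 to 3.79 in sham skin. Slfn4 (ENSMUSG00000000204, chromosome 11, 83175186 to 83190216, GRCm38), an interferon-induced gene of myeloid cells outside the list, was among the genes with the smallest p and rose by 3.06 (SE 0.21), with 24.5, 5.03, 7.81 and 25.7 CPM in radiated, 3.23, 0.688, 0.698 and 3.02 CPM in control and 17.7, 0.693 and 11.5 CPM in sham libraries.

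Many genes of this list hold a known sequence near their start sites. The DNA element through which interferon factors act holds a pair of GAAA blocks, and the letters GAAANNGAAA, on either strand (the reverse complement is TTTCNNTTTC), were searched in the 250 bases before each RefSeq start site on GRCm38.p6. Such a window was at hand for 28 of the 39 list members, and 15 of these (53.6%) held the letters, against 420 of the 12748 tested genes with a window (3.29%). The share was close for members that rose, 7 of 13 (53.8%), and for those that did not pass, 8 of 15 (53.3%). Among all genes with a window it was 34 of 438 (7.76%) for those that rose and 2 of 132 (1.52%) for those that fell, and none of 13 macrophage markers held it. The windows of 4 members that rose are printed, read on the strand of the gene and ending at the base before the start site, with the matching letters in capitals; matches may overlap.
Ifit1, chr19:34640639-34640888, plus strand, 2 matches: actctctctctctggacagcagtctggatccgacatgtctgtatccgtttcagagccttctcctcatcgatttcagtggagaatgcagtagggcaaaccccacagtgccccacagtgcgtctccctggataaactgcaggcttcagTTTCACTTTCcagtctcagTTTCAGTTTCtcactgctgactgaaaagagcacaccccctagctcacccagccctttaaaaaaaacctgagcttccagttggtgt
Ifit3, chr19:34583279-34583528, plus strand, 2 matches: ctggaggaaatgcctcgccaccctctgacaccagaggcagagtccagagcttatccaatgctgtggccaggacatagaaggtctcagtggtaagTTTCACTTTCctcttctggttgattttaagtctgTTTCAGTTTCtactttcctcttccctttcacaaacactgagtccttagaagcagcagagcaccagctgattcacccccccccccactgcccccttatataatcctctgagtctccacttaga
Isg15, chr4:156200819-156201068, minus strand, 3 matches that run into each other: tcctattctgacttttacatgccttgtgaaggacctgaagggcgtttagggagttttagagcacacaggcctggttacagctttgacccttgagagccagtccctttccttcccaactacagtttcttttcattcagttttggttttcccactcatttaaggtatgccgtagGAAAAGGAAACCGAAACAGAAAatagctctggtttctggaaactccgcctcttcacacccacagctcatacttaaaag
Oas1a, chr5:120907526-120907775, minus strand, 2 matches: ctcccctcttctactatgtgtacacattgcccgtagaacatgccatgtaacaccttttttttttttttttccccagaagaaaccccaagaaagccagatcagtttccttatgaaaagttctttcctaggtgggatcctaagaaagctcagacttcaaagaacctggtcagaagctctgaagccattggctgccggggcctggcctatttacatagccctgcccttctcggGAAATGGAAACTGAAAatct
These 4 genes rose by 1.80, 2.16, 1.40 and 2.12 on the log2 scale. A match describes the letters only, and binding was not measured.

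Targets of p53 moved upward in part. Of 28 tested, Cdkn1a, Mdm2, Pmaip1 and Polk rose and Ddit4l fell, with a median of 0.67. Cdkn1a (ENSMUSG00000023067, chromosome 17, 29090976 to 29100727, GRCm38), the gene of the cell cycle inhibitor p21, was at 426, 804, 1759.8 and 1002 CPM in radiated libraries 1 to 4 and at 317, 505, 589 and 463 CPM in the controls. Radiated library 1 lay below 3 of the 4 control libraries, and radiated library 3 was the highest. The fitted log2 change was 0.94 (SE 0.19, adjusted p 0.0376), and it passed without pair 1 but not without pair 2, 3 or 4 (adjusted p 0.104, 0.18 and 0.0908). Sham skin, at 317, 477 and 356 CPM, lay with the controls. Pmaip1, which encodes the death-promoting protein NOXA, had 27.7, 29.7, 79.3 and 91.6 CPM against 10.7, 20.8, 14.6 and 19.1 CPM, with no overlap, and rose by 1.66 (SE 0.32, adjusted p 0.0312). Mdm2 rose by 0.75 and Polk, a polymerase that copies past damaged bases, by 1.06. Bax, Bbc3, Btg2 and Sesn2 had log2 fold changes between 0.87 and 1.01 without passing, and Ccng1 was at -0.48. Among 24 senescence genes 5 rose, namely Cdkn1a, Plau, Plaur, Ccn1 and Ccl2, and Lmnb1, whose loss marks senescent cells, was at -0.36 (adjusted p 0.632). Leaving out pair 1, 2, 3 or 4 gave 7, 3, 0 or 1 p53 targets that rose and 2, 0, 0 or 0 that fell. In the senescence list 6, 0, 0 or 9 genes rose in these fits and none fell. Genes that react within minutes to handling passed in part: of 26, Jun and Ier3 rose, by 0.84 and 0.87, and Hsph1 fell (-0.67). In that list none was called without pair 2 or without pair 3, and 6 rose without pair 4.

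No gene of DNA repair or of cell division rose past the threshold. Of 28 repair genes 23 had a negative log2 fold change, and 1, Parp1, the sensor of strand breaks, fell (median -0.24). The list's medians by pair were -0.55, -0.16, -0.12 and -0.10, its median without pair 1 was -0.16, and no gene of the list was called when any 1 pair was left out. Parp1 was at 39.6, 37.6, 31.7 and 30 CPM in radiated and 62.5, 53.6, 47.9 and 40.8 CPM in control skin, without overlap (log2 fold change -0.56, SE 0.12, adjusted p 0.0426). Of 32 proliferation genes 1 fell, Mcm6, a part of the helicase that opens DNA for copying (-0.77, adjusted p 0.0454), and none was called when any 1 pair was left out. Mki67 had 74.2, 76.2, 74.7 and 67.3 CPM in radiated skin and 402, 64.7, 57.2 and 35.1 CPM in control skin. The radiated libraries were alike, control library 1 stood far above the other control and radiated libraries, and in the other 3 pairs radiated skin was the higher (log2 fold change -0.16, adjusted p 0.892). Sham libraries held 216, 175 and 344 CPM, above every radiated library. The mean log2 CPM of the proliferation list ran from 3.00 to 3.43 in radiated, from 2.79 to 4.76 in control and from 3.63 to 4.54 in sham skin. For the repair list these ranges were 3.38 to 3.52, 3.47 to 4.23 and 3.86 to 4.18. Without pair 1 the log2 fold change of Mki67 was 0.52 (adjusted p 0.136) and the proliferation list's median moved from -0.17 to 0.39.

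The stress response of keratinocytes differed from mouse to mouse. Of 17 genes tested, Slpi, Il1b and S100a9 rose, and these are also genes of myeloid cells. Leaving out pair 1, 2, 3 or 4 gave 11, 1, 0 or 2 genes of the list that rose. The list's median was 1.85, the highest of all lists, and its medians by pair were -0.25, 1.31, 2.16 and 3.32. Krt6a (ENSMUSG00000058354, chromosome 15, 101689910 to 101694307, GRCm38), the keratin of wounded epidermis, was at 429, 437, 632 and 4381 CPM in radiated and 279, 229, 254 and 438 CPM in control skin. Radiated library 4 was far above the rest, and the log2 fold change of 1.50 (SE 0.42) did not pass, with an adjusted p of 0.0982. It passed without pair 4, at 0.94 with an adjusted p of 0.0289, and without pair 1, at 1.83 with an adjusted p of 0.0496. Krt6b, its near copy, spanned 5.53, 2.69, 26 and 3021 CPM in the radiated libraries. Cstdc5 (ENSMUSG00000071561, chromosome 16, 36359382 to 36367748, GRCm38), a member of the stefin family of protease inhibitors, was likewise at 1.46, 0.643, 7.18 and 171 CPM in radiated and 0.332, 0.344, 0 and 1.82 CPM in control skin, and rose by 5.65 (SE 1.03, adjusted p 0.0177). Without pair 4 Cstdc5 was at 3.59 with an adjusted p of 0.0744, and without pair 3 at 5.07 with an adjusted p of 0.157, so neither passed. Mouse stefin genes are close copies of each other, so the counts of any single one are uncertain.

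Among genes of epidermal differentiation few passed. Of 38 genes tested 1 rose, Lce3c of the cornified envelope, and none fell (median 0.33). Krt14 and Krt5 of the basal layer were at 0.60 and 0.16, Krt10 and Krt1 of the suprabasal layers at -0.16 and -0.12, and none of the 4 passed. Lor, the gene of loricrin, had 38.2, 46.5, 186 and 127 CPM in radiated and 41.1, 75.4, 74.4 and 52 CPM in control skin and was higher in 2 of 4 pairs. Epgn, an EGF receptor ligand of keratinocytes, rose by 1.57 (adjusted p 0.0205), and the other 9 genes of that pathway did not pass. No gene of epidermal differentiation was called without pair 2, 3 or 4, and none of the EGF receptor pathway without pair 3 or 4.

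Genes of the dermal matrix rose. Of 51 matrix glycoprotein and crosslinking genes, 17 rose, none fell and 50 had a positive log2 fold change (median 0.76). Fbn1, which encodes the fibrillin of elastic microfibrils, was at 631, 315, 476 and 626 CPM in radiated and 330.1, 167, 193 and 269 CPM in control skin. It rose in 4 of 4 pairs by 1.09 (SE 0.12, adjusted p 0.00586), with radiated library 2 below control library 1. Fn1, fibronectin, rose by 1.04, from 664, 309.6, 465 and 568 CPM to 1610.0, 889, 988 and 683 CPM (SE 0.20, adjusted p 0.0301). Among the enzymes that crosslink collagen and elastin, Loxl1, Loxl2 and Loxl4 rose, by 0.96, 0.76 and 1.20, and Lox was at 0.80 without passing (adjusted p 0.122). Tnc, tenascin C, was at 1.36 and did not pass (adjusted p 0.39). Without pair 2, 3 genes of the list were called and without pair 3 none, while the list's median was 0.67 without pair 3.

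Of 22 collagen genes 6 rose: Col1a2, Col3a1, Col5a1, Col5a2, Col6a3 and Col6a5 (median 0.52). Of these 6, 4 had a sham mean nearer to control and 2 nearer to radiated skin. The mean log2 CPM of the list ran from 6.02 to 6.72 in radiated, from 5.60 to 6.62 in control and from 5.81 to 6.62 in sham skin. Radiated skin was thus not set apart from sham skin in this list. Col3a1 was at 4082, 1408, 3439.5 and 4951 CPM in radiated and 2678, 1075, 1685 and 1951 CPM in control skin, with radiated library 2 under 3 of the 4 controls (log2 fold change 0.84, SE 0.18, adjusted p 0.0431). Col1a1 (ENSMUSG00000001506, chromosome 11, 94936224 to 94953042, GRCm38), the main chain of skin collagen, had 2762, 1264, 4973 and 3707 CPM against 3056, 949, 1704 and 1722 CPM. It was lower in the radiated member of pair 1 and did not pass (0.73, SE 0.26, adjusted p 0.188). Without pair 1 Col1a1 passed, at 1.03 with an adjusted p of 0.033. Of 15 fibroblast markers 8 rose and none fell (median 0.79), among them Pdgfra, the receptor that defines dermal fibroblasts, at 0.70, and Pi16, a marker of a perivascular fibroblast state, at 1.14. The fibroblast list shares 3 genes with the collagen list and 4 with the matrix list. Leaving out pair 1, 2, 3 or 4 gave 9, 0, 0 or 1 collagen genes and 9, 1, 0 or 4 fibroblast markers that rose. Without pair 3 the medians of the 2 lists were 0.42 and 0.79.

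Enzymes that cut matrix rose too, with 9 of 23 tested higher and none lower (median 0.77). Mmp2, a gelatinase of fibroblasts, was at 242, 115, 233 and 244 CPM in radiated and 94, 69.1, 86 and 109 CPM in control skin. The groups did not overlap, library 2 was the lowest on both sides, and the fitted log2 change was 1.18 (SE 0.14, adjusted p 0.00806). Mmp14, which activates the product of Mmp2 at the cell surface, rose by 0.80, and the inhibitor Timp1 rose by 2.11 from low levels, 0.712, 0.43, 0.698 and 2.03 CPM to 1.37, 1.7, 4.51 and 10 CPM. Mmp3 was at 1.05 without passing (adjusted p 0.129). In the TGF-beta family, which drives fibrosis, 5 of 28 genes rose: the ligand Tgfb1 (0.75), the receptor Tgfbr2 (0.84), the activin inhibitor Fst (1.04), Fstl1 and Thbs1. Tgfbr2 was at 294, 275, 337 and 278 CPM in radiated and 148, 144, 188 and 185 CPM in control skin, with no overlap. Ccn2, which TGF-beta induces, was at 0.77 without passing. Without pair 3, 1 protease gene and none of the TGF-beta genes were called.

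Vessel markers were split between blood and lymph, though the difference between the lists was not tested. None of 15 endothelial markers passed (median -0.15), with Pecam1 at -0.15 and Cdh5 at -0.037. Of 7 lymphatic markers Lyve1, Ccl21a and Pdpn rose, and all 7 were higher in 4 of 4 pairs (median 1.03). Without pair 2, 1 lymphatic marker was called, and without pair 3 none. Lyve1, a hyaluronan receptor that macrophages also carry, was at 97.3, 44.4, 47.3 and 51.5 CPM in radiated and 23, 15.2, 23.7 and 24.7 CPM in control skin, with no overlap (log2 fold change 1.42, SE 0.20, adjusted p 0.0124). Prox1, the factor that defines lymphatic identity, was at 5.35, 8.18, 9.39 and 7.46 CPM against 4.41, 5.38, 4.98 and 6.41 CPM and did not pass (0.51, adjusted p 0.227). Among 26 NRF2 target genes Hmox1, Ftl1 and Srxn1 rose, and Hmox1, the heme-degrading enzyme that macrophages use, was at 44.8, 37.7, 88 and 69 CPM in radiated and 17.1, 20.1, 30.6 and 26.1 CPM in control skin (1.30, SE 0.15). Nqo1, Gclc and Gclm, the usual NRF2 reporters, were at -0.25, -0.19 and -0.13 and did not pass. No gene of the NRF2 list was called without pair 3. No marker of Schwann cells (12), melanocytes (6) or red blood cells (5) passed.

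**Figure D3:**
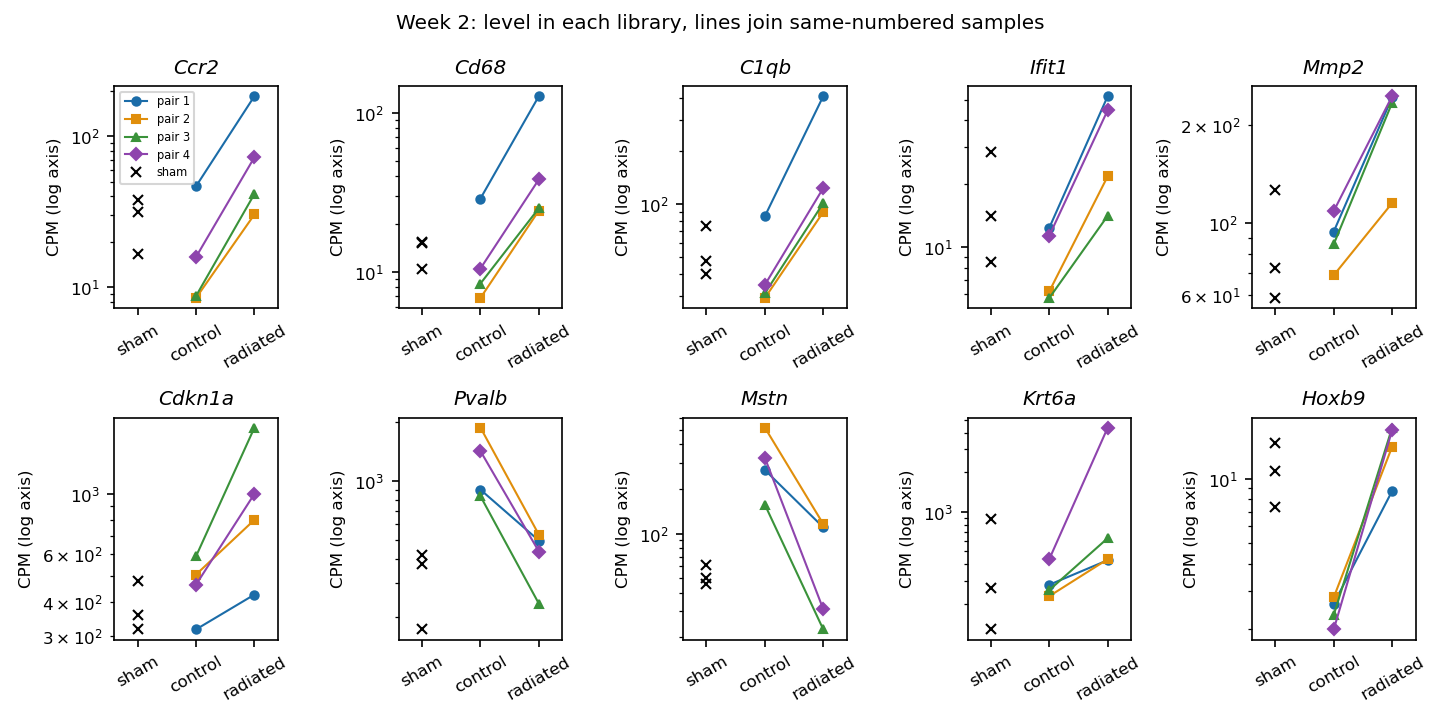
Level of 10 genes in each library, in CPM on a log axis: crosses are the 3 sham libraries and lines join the control and radiated library with the same number. Ccr2, Cd68, C1qb, Ifit1, Mmp2 and Cdkn1a go up in each of the 4 pairs, Pvalb and Mstn go down in each, Krt6a of radiated library 4 reaches 4381 CPM, and Hoxb9 is lowest in control skin while sham and radiated libraries overlap.

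Skeletal muscle genes made up the clearest group among those that fell. Skin of the mouse trunk lies on a thin sheet of fast-twitch muscle, and its RNA enters a biopsy according to how deep it is cut. Of 32 muscle markers 18 fell and none rose, with a median of -0.97 and medians by pair of -0.36, -0.98, -1.11 and -1.42. Pvalb (ENSMUSG00000005716, chromosome 15, 78191114 to 78206400, GRCm38), the calcium buffer of fast fibres, had the smallest p among genes that fell. It was at 494, 529.9, 235 and 435 CPM in radiated and 901, 1873, 835 and 1420.4 CPM in control skin, with no overlap (log2 fold change -1.56, SE 0.18, adjusted p 0.00671). Mstn (ENSMUSG00000026100, chromosome 1, 53061640 to 53068079, GRCm38), myostatin, the brake on muscle growth, fell by more than any other gene in the list: 110.2, 116, 22.5 and 30.8 CPM in radiated against 269, 520.2, 157 and 325 CPM in control skin (-2.41, SE 0.32, adjusted p 0.0104). Actn3, the actinin of fast fibres, was at -1.88, the fast myosin Myh4 at -1.55 and the fast troponin Tnnc2 at -1.11. Genes of slow fibres and of other myosins did not pass: Myh7 was at 0.28, Tnni1 at 0.81, Myh1 at 0.086 and Myh2 at 0.20. Leaving out pair 1, 2, 3 or 4 gave 22, 2, 0 or 12 muscle genes that fell, and the list's median was -0.94 without pair 3. Des of smooth and striated muscle, in the smooth muscle list of 12, fell too (-0.70).

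Sham skin was on the radiated side for these genes. All 18 muscle genes that fell had a sham mean nearer to radiated than to control skin, and Mstn was at 61.1, 50.2 and 45.6 CPM and Pvalb at 377, 173 and 416 CPM in the 3 sham libraries. The mean log2 CPM of the list ran from 7.39 to 8.07 in radiated, from 8.17 to 8.80 in control and from 6.48 to 7.61 in sham skin. Several of the other genes with the largest decrease are also muscle genes, such as Mybpc2 (-1.44), Ampd1 (-1.41) and Mylk4 (-1.35). Mitochondria-encoded genes, a group chosen after their values were seen, were also lower: 9 of 13 fell, with log2 fold changes from -0.75 for mt-Co3 to -0.53 for mt-Nd4l. None of the 26 nuclear oxidative phosphorylation genes passed, but all 26 were negative (median -0.34). No mitochondria-encoded gene was called without pair 2 or pair 3. The part of muscle content in the decrease of these genes was not tested.

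In the hair follicle 2 of 22 shaft and inner root sheath genes fell, Gata3 (ENSMUSG00000015619, chromosome 2, 9857078 to 9890034, GRCm38) and Krt32 (median -1.08). Gata3, a factor of the inner root sheath and of some lymphocytes, was at 453, 703, 307 and 335 CPM in radiated and 784, 1144, 673 and 690.0 CPM in control skin, and 4 of 4 pairs moved down (-0.92, SE 0.12, adjusted p 0.0093). Krt71 was at 0.575, 3.68, 0.181 and 0.0545 CPM in radiated, 741.5, 0.172, 0 and 22.3 CPM in control and 499.6, 4966 and 5146 CPM in sham libraries. Only control libraries 1 and 4 and the sham libraries held it at a level above 4 CPM, and the log2 fold change of -5.17 (SE 2.59) had an adjusted p of 0.33. It passed without pair 2, at -9.54 with an adjusted p of 0.0127. Without pair 1 the list's median was -0.11. Lgr6, a stem cell marker of the upper follicle, fell (log2 fold change -0.68), the only call among 23 stem cell genes. No gene passed among 25 of the sebaceous gland, 19 of the dermal papilla, 20 of adipocytes, 29 of the basement membrane, 35 of the Wnt pathway and 19 of the clock, and Adipoq (ENSMUSG00000022878, chromosome 16, 23146536 to 23158028, GRCm38) of fat cells was at 83.7, 83.9, 77.1 and 35.2 CPM in radiated and 97.2, 58, 109 and 87.4 CPM in control skin (adjusted p 0.47).

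Some position genes differed between the 2 skins. Hox genes keep the address of a cell along the body, with higher numbers further toward the tail and the limbs. Of 29 tested, Hoxb9 (ENSMUSG00000020875, chromosome 11, 96271457 to 96276595, GRCm38) and Hoxc10 (ENSMUSG00000022484, chromosome 15, 102966796 to 102971893, GRCm38) rose and no other passed (median -0.21). Hoxb9 was at 8.76, 14.1, 17.3 and 16.8 CPM in radiated, 2.61, 2.8, 2.31 and 1.98 CPM in control and 10.9, 14.6 and 7.38 CPM in sham skin. The control libraries were alike and lay below all radiated and sham libraries (log2 fold change 2.51, SE 0.26, adjusted p 0.00523). Hoxc10 was at 12, 6.49, 10.1 and 3.81 CPM in radiated, 0.712, 1.81, 0.611 and 0.886 CPM in control and 7.9, 7.24 and 6.25 CPM in sham skin (2.96, SE 0.42, adjusted p 0.0134). For both, the radiated and sham libraries overlapped. Their cluster neighbours Hoxc9 and Hoxb8 and the paralogue Hoxa10 were at 0.38, 0.34 and 0.66 and did not pass, and 19 of the 29 had a negative log2 fold change. Hoxb9 and Hoxc10 were called without pair 1, 2 or 4 and not without pair 3. Of 34 other regional factors Emx2 rose by 0.93 (adjusted p 0.0369) and Tbx3 was lower at -0.74 (adjusted p 0.034). Over all tested genes 4.52% were called, so 2 of 34 is near that share. No factor of these 34 was called without pair 2 or without pair 3. Emx2 was at 16.4, 15.4, 13.9 and 12.1 CPM in radiated, 6.93, 7.48, 6.9 and 8.91 CPM in control and 10.8, 7.89 and 5.47 CPM in sham skin.

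**Figure D4:**
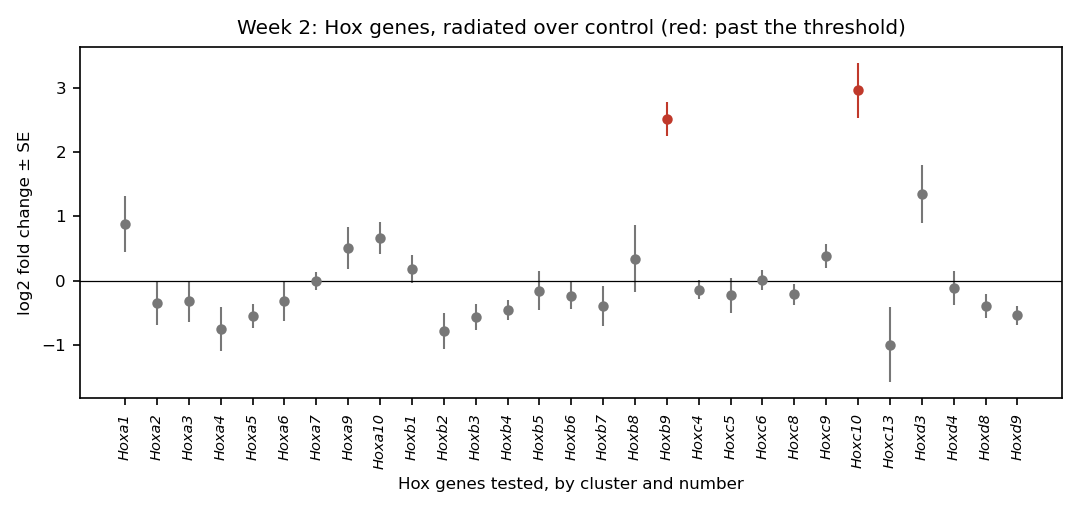
Points give the log2 fold change of radiated over control skin for the 29 Hox genes tested, with the standard error as a bar, ordered by cluster and number. Hoxb9 at 2.51 and Hoxc10 at 2.96, in red, passed the threshold; the others lie between -0.995 for Hoxc13 and 1.34 for Hoxd3.

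Most of the 12 largest increases, counted over genes that averaged 5 CPM or more, belonged to predicted genes of unknown function. Gm10800 (ENSMUSG00000075014, chromosome 2, 98666547 to 98667301, GRCm38) was at 226, 56.9, 786 and 1887 CPM in radiated and 3.85, 11.1, 4.54 and 7.04 CPM in control skin, with sham libraries at 5.39, 18.3 and 7.59 CPM, and the fitted log2 change was 6.09 (SE 1.00, adjusted p 0.0206). The groups did not overlap, and radiated libraries 3 and 4 were the highest. Without pair 3 Gm10800 was at 5.51 and did not pass (adjusted p 0.152). Gm10801 lies beside it on chromosome 2, and Gm10721, Gm10720, Gm10717, Gm10718 and Gm10719 lie next to each other on chromosome 9, between 3013140 and 3033289. These rose by 4.62, 4.98, 4.64, 3.83, 3.69 and 3.57 in that order. Clustered predicted genes of this kind can share sequence, so the counts of any single one are uncertain. Gm6545 on chromosome 19, another predicted gene, rose by 3.97.

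The difference at week 2 was set against those of the neighbouring weeks. Over the 32 libraries of radiated or control skin, fitted together, edgeR found the radiated-minus-control difference changed from week 1 to week 2 for 0 of 19338 genes (0%), with 1483 at an unadjusted p under 0.05. No other tool was run on that contrast. From week 2 to week 3 it rose for 639 genes (3.3%) and fell for 1052 (5.44%). With libraries scaled to their totals the split was 1048 rising and 535 falling, and the median over all genes was 0.21 in place of 0.036 on the log2 scale. Leaving out replicate 1, 2, 3 or 4 of both skins gave 204, 652, 311 or 1360 such genes in all, against 1691. The smallest p on the rising side, over genes that averaged 5 CPM or more, belonged to Cxcl5, Saa3 and Hgf, at 4.56, 4.33 and 2.78 (adjusted p 0.00058 each). Cxcl5 and Saa3 are signals of inflamed epithelium and Hgf is a growth factor of mesenchyme. On the falling side they were Otud1, Timp3 and Nectin3, at -3.24, -2.28 and -2.25.

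Several features of week 2 did not carry over. The difference of Cdkn1a went from 0.94 in week 2 to -0.38 in week 3 (change -1.32, adjusted p 0.0255). Lyve1 went from 1.42 to -0.57 (change -1.98, adjusted p 0.0383), Tgfbr2 from 0.84 to -0.36 (adjusted p 0.00632) and Csf1 from 1.15 to -0.22 (adjusted p 0.0121). Hoxb9 went from 2.51 to 0.31 (adjusted p 0.0424) and Hoxc10 from 2.96 to -0.10 (adjusted p 0.0173). In week 1 these 2 Hox genes stood at 2.52 and 2.21 and did not pass in that week's own paired fit (adjusted p 0.143 and 0.204). The mean of Hoxb9 in control skin was 2.31 CPM in week 1, 2.43 CPM in week 2 and 7.27 CPM in week 3, while in radiated skin it was 14.9, 14.2 and 8.09 CPM.

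For other genes the difference grew. Csf3r went from 2.74 to 4.91 (change 2.18, adjusted p 0.0354), Slpi from 2.17 to 6.08 (adjusted p 0.0317), Mmp3 from 1.05 to 3.43 (adjusted p 0.032) and Timp1 from 2.11 to 5.47 (adjusted p 0.0119). Of 12 neutrophil genes in that model the difference rose for 4 and fell for none, and of 19 macrophage genes it rose for 2 and fell for 3. It rose for 11 and fell for none of 32 proliferation genes, and rose for none and fell for 12 of 41 genes of epidermal differentiation. These counts lean on single replicates: without replicate 1, whose week 2 control library stood apart in dividing cells, the difference rose for 1 proliferation gene and the list's median change was 0.61 in place of 1.13. In that fit it rose for no neutrophil gene and fell for 3 epidermal genes and 1 macrophage gene, and without replicate 3 the epidermal count was 2. The macrophage gene Cd68, at 0.93, 1.86 and 1.71 in weeks 1, 2 and 3, and the monocyte gene Ccr2, at 0.82, 2.06 and 1.24, gave no change past the threshold between weeks (adjusted p 0.896 and 0.208 from week 2 to week 3). Comparisons between weeks are between different mice.

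**Figure D5:**
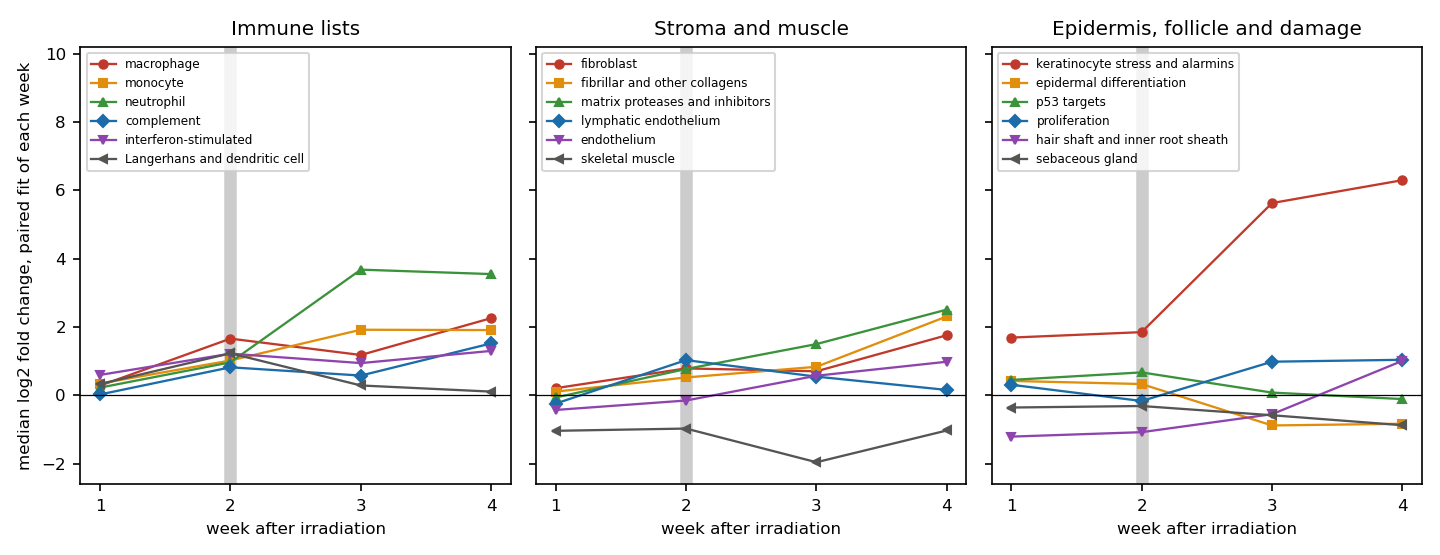
Median log2 fold change of radiated over control skin of 18 gene lists in weeks 1 to 4, each week fitted on its own with the pairs in the model and over the members tested in that week. The grey band marks week 2, where the macrophage list stands at 1.66 after 0.28 in week 1, the keratinocyte stress list at 1.85 before 5.63 in week 3, and the neutrophil list at 0.97 before 3.68.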

How the data were processed

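RNA from whole skin was sequenced in bulk, and the authors deposited estimated counts per gene, made with Trim Galore 0.6.7 and kallisto 0.46.2 on mm10, per the submitters' processing notes; per the labels' protocols the authors also used DESeq2. The estimated counts (30 to 31.7% of the values of a week 2 library are not whole) were rounded here. Of 36106 genes in the table, 35866 matched GENCODE M21 on GRCm38, from which coordinates were taken. Genes passing filterByExpr (17345) were tested with edgeR 4.0.16 (R 4.3.3) by glmQLFit and glmQLFTest, with TMM scaling, the replicate number as a block, 8 libraries, and Benjamini-Hochberg adjustment at 0.05. Each fold change comes from that fit, and log2 CPM values used a prior count of 2. Alternatives used DESeq2 1.42.0 and limma 3.58.1, other scalings and filters, and leaving out each pair.

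The block follows the count of mice: 19 mice, 3 of them sham, leave 16 for 32 samples. Deviations from group means correlated at 0.12 to 0.23 between same-numbered radiated and control samples, against -0.19 to 0.081 between other numbers, and 4 of 4 correlated best with their own number. Nothing else in the labels says that replicates are separate mice, so p-values measure the spread between these samples. No 2 libraries of a group agreed within counting noise (lowest reduced chi-square 31.6 over 12 pairs). A count of 0 allows 0.105 to 0.158 CPM (3 counts), for counting error only.

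Members and lists were chosen with earlier results of these data known. Genes named are list members; those with adjusted p under 0.05, a mean from 5 CPM upward and 1 direction in all 4 pairs that were among the 12 largest changes or the 6 smallest p on either side; the 3 smallest p per direction between weeks; and Hoxb9, Cdkn1a, Krt6a, Krt71, Col1a1, Adipoq, Mki67 and S100a8. On simulated week 2 data of 17345 genes with 200 changed, the paired test recovered 74 of 100 at 2-fold and 100 of 100 at 4-fold, and 23 of its 197 calls (11.7%) were unchanged genes.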

Additional observations from a re-analysis of the deposited data

Results flagged for a closer look

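Of 78 groups of 4 libraries checked for a library far from the other three, 10 had one. Chance gives about 1 in 20 for independent, normally distributed values. CPM values of genes from the same libraries need not be so, and the rate for them was not checked. In radiated skin, Cstdc5 was at 171 CPM in library 4 against 0.643 to 7.18 CPM in the others, and Krt6a at 4381 CPM in library 4 against 429 to 632 CPM. Cfp was at 121.5 CPM in radiated library 1 against 30.6 to 40.9 CPM, Adipoq at 35.2 CPM in radiated library 4 against 77.1 to 83.9 CPM, and Krt71 at 3.68 CPM in radiated library 2 against 0.0545 to 0.575 CPM. In control skin, library 1 was at 741.5 CPM for Krt71 against 0 to 22.3 CPM, at 402 CPM for Mki67 against 35.1 to 64.7 CPM and at 2.90 CPM for Gm6545 against 0 to 0.306 CPM. Control library 4 was at 1.72 CPM for Gm10721 against 0.262 to 0.427 CPM and at 2.61 CPM for Gm10717 against 0.38 to 0.516 CPM.

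The genes named for the size or p of their week 2 change, and the 8 named whatever their values, were checked for a change between weeks. Among them 3 had a radiated-minus-control difference that changed from week 2 to week 3 in edgeR's test over 32 libraries. The change was 1.71 on the log2 scale for Gadl1 (adjusted p 0.0224), -1.32 for Cdkn1a (adjusted p 0.0255) and -2.22 for Hoxb9 (adjusted p 0.0424).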

How the results depend on the processing

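In edgeR the 784 calls rest on the pairs: the paired block gave 784 genes and the fit without the replicate block gave 1. That fit gave 2 without replicate 1, an alternative added after the data were seen. With the block, DESeq2's Wald test called 1549, and leaving out 1 pair at a time gave 57 to 941, with the low value without pair 3 and 314 without pair 2. Of the 784 genes, 618, 275, 57 and 371 were called again without pair 1, 2, 3 and 4, and 53 in all 4 of these fits. The count stayed within 1.5 times of 784 for DESeq2 size factors (793), total-count scaling (914, of which 83.3% rose against 76.8%), voom (812), no filter (818), a minimum of 1 CPM (787), the legacy edgeR fit (641), the fit of 32 libraries (809) and DESeq2 with no block (734). For the change from week 2 to week 3 the leave-outs gave 204 to 1360 genes against 1691, and the change from week 1 to week 2 gave 0 in each of its 7 alternatives. Leaving out 1 pair at a time moved Mki67 between -0.58 and 0.52, the latter without replicate 1. Over the 38 tested genes that the naming rule took from the week 2 fit or fixed, and their alternatives, 425 values kept their direction and side of the threshold, 96 no longer passed, 5 newly passed and 1, Mki67, changed sign. Causes of these shifts were not tested. Control skin of unstated site, 4 mice and 3 residual degrees of freedom limit the precision, and genes under the count filter could not be tested.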
